A study of Homo sapiens with 6 samples.

Results

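The genes described here are 10 components and partners of the dynein motor, out of 24551 gene symbols measured by RNA-Seq. They are the adaptors BICD1 and BICD2, the dynactin subunits ACTR1A, ACTR1B, DCTN1, DCTN2 and DCTN3, and the dynein subunits DYNC1H1, DYNC1I2 and DYNLL1. They were taken by symbol and had been chosen by measured values, namely their level in each cell line and their change after SPOP knockdown, so levels and changes of the 10 genes are given as descriptions without a test. All 10 were among the 11865 genes whose 6 libraries averaged 1 FPKM or more (FPKM is the number of fragments mapped to a gene, divided by the length of its transcript and by the size of the library). SPOP is the substrate-binding part of a cullin ubiquitin ligase, and the study asked how its loss changes gene expression in 2 cancers.

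The lines were DU145, from prostate cancer, and 769-P, from renal cell adenocarcinoma, so that 1 line stands for each cancer. Each line gave 3 libraries, with the control siRNA (NC), SPOP siRNA 1 and SPOP siRNA 2, and each control has no replicate. The changes of both siRNAs in a line share its control. SPOP itself had 16.1 FPKM in the DU145 control, 2.77 with siRNA 1 and 2.96 with siRNA 2, and 11.6, 1.53 and 1.39 FPKM in the same order in 769-P. The kidney factor PAX8 had 105.6 to 125 FPKM in 769-P against 1.10 to 1.47 in DU145. The prostate markers KLK3 and HOXB13 were at or near 0 in DU145. The 4 kidney markers summed to 166 to 170 FPKM in 769-P, where CA9 was listed at 0, and the 3 leukocyte markers and the 3 endothelial markers each summed to at most 1.64 FPKM in any library. Olfactory receptor genes, which these cells should lack, were above 0 in 287 of 366 cases in the DU145 control and in 237 in 769-P siRNA 2 (mean 0.345 and 0.227 FPKM), against 3 to 5 in each of the others. Subtracting that mean kept all 20 line-specific changes of the 10 genes within the spread of the siRNAs, and it put BICD1 past 1.5-fold with both siRNAs in DU145 (0.63 and 1.07 on the log2 scale).

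Cytoplasmic dynein is the motor that carries cargo along microtubules towards their minus ends, which in most cells means towards the centrosome. Dynactin is a large complex built on a short filament of the actin-related protein ARP1, and it is needed for dynein to move over long distances. Adaptors such as BICD2 bind a cargo at one end and hold dynein and dynactin together with the other, and in this way they switch the motor on. BICD2 is best known for carrying Golgi-derived vesicles marked by RAB6 and for tethering dynein to the nuclear envelope through RANBP2.

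BICD2 lies on the minus strand of chromosome 9 (GRCh37, chr9:95473645-95527115) and its transcript has 7 exons. ACTR1B, which encodes the beta form of ARP1, lies on the minus strand of chromosome 2 (chr2:98272402-98280507) and its transcript has 11 exons. Each has a paralog among the 10 genes, BICD1 on the plus strand of chromosome 12 (chr12:32259769-32536567) and ACTR1A on the minus strand of chromosome 10 (chr10:104221638-104262469). The 250 bases before the start of these 4 genes are printed because the data differ within each pair. They are 5′ to 3′ on the strand of the gene, from RefSeq on GRCh38.p14, and capitals mark a CCAAT box (CCAAT or ATTGG) or a GC box (GGGCGG or CCGCCC).
BICD2, chr9:92764834-92765083, minus strand: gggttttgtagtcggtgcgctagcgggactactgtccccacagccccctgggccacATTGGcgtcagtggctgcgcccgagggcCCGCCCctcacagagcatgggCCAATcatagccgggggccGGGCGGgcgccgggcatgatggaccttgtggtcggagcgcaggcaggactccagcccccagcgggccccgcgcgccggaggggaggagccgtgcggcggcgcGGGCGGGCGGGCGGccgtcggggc
BICD1, chr12:32106597-32106846, plus strand: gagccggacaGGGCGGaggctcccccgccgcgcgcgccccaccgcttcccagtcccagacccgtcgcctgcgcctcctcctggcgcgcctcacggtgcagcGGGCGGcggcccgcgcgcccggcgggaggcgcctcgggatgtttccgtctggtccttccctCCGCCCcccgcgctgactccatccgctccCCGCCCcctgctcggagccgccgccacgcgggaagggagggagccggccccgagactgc
ACTR1B, chr2:97664045-97664294, minus strand: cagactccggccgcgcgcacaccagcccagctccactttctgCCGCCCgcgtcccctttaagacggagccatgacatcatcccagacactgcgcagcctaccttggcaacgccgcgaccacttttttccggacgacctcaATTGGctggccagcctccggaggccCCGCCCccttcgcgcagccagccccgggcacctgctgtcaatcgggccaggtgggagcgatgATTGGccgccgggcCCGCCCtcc
ACTR1A, chr10:102502713-102502962, minus strand: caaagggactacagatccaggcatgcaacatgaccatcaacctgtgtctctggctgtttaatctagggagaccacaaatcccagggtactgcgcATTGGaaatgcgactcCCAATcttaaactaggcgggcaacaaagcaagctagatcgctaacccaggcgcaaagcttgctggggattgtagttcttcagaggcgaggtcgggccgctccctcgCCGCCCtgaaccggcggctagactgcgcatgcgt

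The BICD2 window held 2 CCAAT boxes, 194 and 145 bases before the start, and 5 matches to the GC box, of which those at 24, 20 and 16 bases overlap each other. BICD1 had no CCAAT box and 4 GC boxes. ACTR1B had CCAAT boxes at 110 and 23 bases before the start and GC boxes at 208, 85 and 9 bases, and ACTR1A had 2 CCAAT boxes and 1 GC box. Of 35116 windows of this length, 32.0% held a CCAAT box and 42.6% a GC box on either strand. None of the 4 windows held an E-box (CACGTG, in 6.34% of all windows), a cyclic AMP response element (TGACGTCA, 1.65%) or a TATA box (TATAAA, 10.7%). The GC content was 76% for BICD2, 79.6% for BICD1, 68.8% for ACTR1B and 55.6% for ACTR1A, and the median of all windows was 58%. These are matches of letters and were not tested for binding.

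BICD2 was higher after SPOP knockdown in both lines and with both siRNAs. It stood at 8.59 FPKM in the DU145 control, 18.2 with siRNA 1 and 23.2 with siRNA 2 (20.7 ± 3.54 for the knockdown, SD, n = 2 siRNAs). The 769-P control had 11.9 FPKM, against 29.3 with siRNA 1 and 26.6 with siRNA 2 (27.9 ± 1.90, n = 2). Every knockdown library was above both controls, and the ratio to the control lay between 2.12 and 2.70. On the scale of log2(FPKM + 1), which understates changes of genes with low values, the differences were 0.999 and 1.33 in DU145 and 1.23 and 1.10 in 769-P. Their mean was 1.17 in each line, with an SD between the siRNAs of 0.24 in DU145 and 0.09 in 769-P. By this mean BICD2 was 112th of 11865 genes in DU145 and 101st in 769-P, and by the smallest of its 4 differences it was 9th. In bulk RNA like this, more transcript per cell and a larger share of cells with the transcript cannot be told apart.

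BICD1, which encodes the related adaptor BICD1, was the least abundant of the 10 genes in all 6 libraries. It had 1.69 FPKM in the DU145 control, 2.63 with siRNA 1 and 3.92 with siRNA 2, so both knockdown libraries were above the control. The 769-P values were 1.51, 0.707 and 1.41 FPKM in that order, with both knockdown libraries below the control. The log2 difference was 0.65 ± 0.31 (SD, n = 2 siRNAs) in DU145 and -0.31 ± 0.35 in 769-P. In 769-P the value with siRNA 2 was close to the control and the lower one was that with siRNA 1. BICD2 made up 83.5% of the summed FPKM of the pair in the DU145 control and 87.4% and 85.5% after knockdown. In 769-P its share was 88.8% in the control, 97.6% with siRNA 1 and 95.0% with siRNA 2. The sum of the pair went from 10.3 FPKM to 20.8 and 27.1 in DU145 and from 13.4 to 29.98 and 27.99 in 769-P. BICD2 thus carried most of the BICD transcript in every library.

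Dynactin has a filament of ARP1, a shoulder and arm that carry DCTN1 (the p150Glued subunit, which binds microtubules and dynein), DCTN2 (dynamitin) and DCTN3 (p24), and capping proteins at its ends. ACTR1B, a minor form of ARP1, was higher after knockdown in all 4 comparisons. DU145 had 14.5 FPKM in the control, 22.8 with siRNA 1 and 28.1 with siRNA 2 (25.4 ± 3.75, SD, n = 2 siRNAs). The 769-P libraries had 16.0 FPKM with the control siRNA, 27.6 with siRNA 1 and 27.1 with siRNA 2 (27.3 ± 0.413, n = 2). The ratio to the control lay between 1.57 and 1.94, and the knockdown libraries were above both controls. The log2 differences were 0.62 and 0.91 in DU145 (mean 0.77, SD 0.21) and 0.75 and 0.73 in 769-P (mean 0.74, SD 0.02). ACTR1B was 521st of 11865 genes in DU145 and 433rd in 769-P by this mean.

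ACTR1A, the major form of ARP1, had 43.4 FPKM in the DU145 control, 52.8 with siRNA 1 and 47.9 with siRNA 2. The 769-P values were 65.9, 84.4 and 57.8 FPKM, so the siRNAs lay on either side of the control. Its mean log2 difference was 0.21 ± 0.10 (SD, n = 2 siRNAs) in DU145 and 0.08 ± 0.38 in 769-P. ACTR1B made up 25.0% of the summed FPKM of the ARP1 pair in the DU145 control, 30.1% with siRNA 1 and 36.9% with siRNA 2. Its share in 769-P was 19.5%, 24.7% and 31.9% in the same order. The share of the beta form was therefore higher in each knockdown library than in the control of its line, and it stayed below that of ACTR1A in all 6. The proteins of ACTR1A and ACTR1B are identical at 340 of 376 aligned residues (90.4%), and those of BICD1 and BICD2 at 543 of 835 (65.0%). The longest run of bases shared by the transcripts was 35 for the ARP1 pair and 16 for the BICD pair. None of the 100-base windows of the ACTR1B or BICD2 transcript matched the paralog within the 2 mismatches that were allowed in mapping.

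DCTN1 (chr2:74588281-74619214) had 51.8 FPKM in the DU145 control, 70.6 with siRNA 1 and 71.4 with siRNA 2, and the log2 difference was 0.45 ± 0.01 (SD, n = 2 siRNAs). For 769-P these values were 39.6, 68.9 and 48.1 FPKM, and the log2 difference was 0.53 ± 0.36. It was above the control with each siRNA, and in 769-P most of the change came with siRNA 1. DCTN2 (chr12:57923416-57941007) had 72.2, 78.0 and 86.3 FPKM in DU145 and 37.03, 57.2 and 44.9 in 769-P, for control, siRNA 1 and siRNA 2. Its log2 differences were 0.11 and 0.25 in DU145 and 0.61 and 0.27 in 769-P, with the larger value in 769-P again from siRNA 1. DCTN3 (chr9:34613542-34620520) had 42.9 FPKM in the DU145 control against 32.7 and 38.0 after knockdown, and 31.0 in the 769-P control against 37.5 and 25.9. Its values in 769-P lay on either side of the control.

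Of the dynein subunits, none was past 1.5-fold with both siRNAs. DYNC1H1 (chr14:102430910-102522780), the heavy chain that hydrolyses ATP and walks on the microtubule, had 66.8 FPKM in the DU145 control, 54.1 with siRNA 1 and 63.9 with siRNA 2. Its 769-P values of 23.2, 24.3 and 19.0 FPKM lay on either side of the control. DYNC1I2 (chr2:172543919-172606668), an intermediate chain that binds DCTN1, had 6.35, 6.83 and 7.56 FPKM in DU145 and 25.0, 23.9 and 21.9 in 769-P. Both knockdown libraries were above the control in DU145 and below it in 769-P, by log2 differences of 0.09 and 0.22, and -0.06 and -0.18. DYNLL1 (chr12:120907653-120936296), a light chain that also binds many other proteins, had 228 FPKM in the DU145 control, 178 with siRNA 1 and 279 with siRNA 2. The 769-P control had 277 FPKM, against 260 and 226. The DU145 siRNAs lay on either side of the control, with log2 differences of -0.36 and 0.29.

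**Figure D1:**
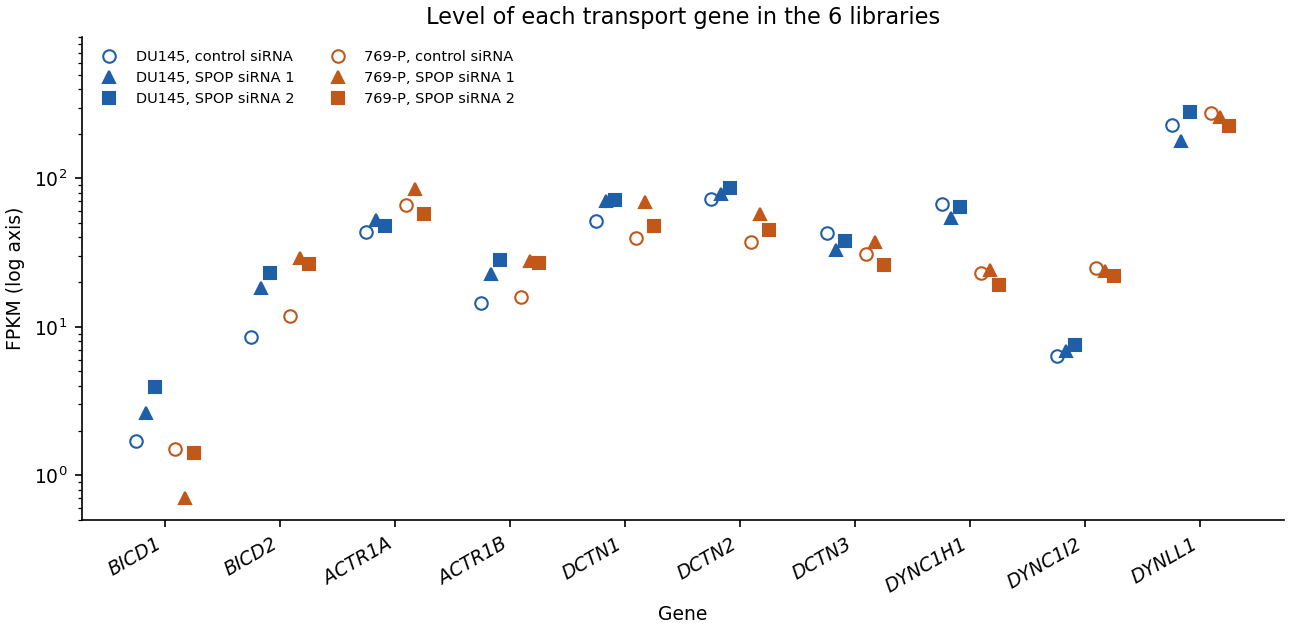
Level of the 10 dynein, dynactin and BICD genes in each of the 6 libraries, in FPKM on a log axis. Open circles are the controls, triangles SPOP siRNA 1 and squares SPOP siRNA 2, blue for DU145 and orange for 769-P. BICD2, ACTR1B, DCTN1 and DCTN2 lay above the control of their line in all 4 knockdown libraries. DYNC1H1 was higher in DU145 and DYNC1I2 in 769-P.

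The 1.5-fold change that the study used for its shared genes was applied on the log2(FPKM + 1) scale to both siRNAs of a line. In DU145, 2 of the 10 genes were higher by this measure, BICD2 and ACTR1B, and 0 were lower, where 4.72% of all 11865 genes were higher and 1.19% lower. In 769-P the same 2 genes were higher and 0 were lower, with 3.6% of all genes higher and 3.73% lower. The call of ACTR1B in DU145 ended with median centring, where siRNA 1 was at 0.55, with centring on transcript length (0.57) and with centring on GC content (0.41). BICD2 and ACTR1B were higher by 1.5-fold in all 4 knockdown libraries, as were 0.868% of all genes. Without a threshold, 4 of the 10 genes were higher in all 4, as were 20.1% of all genes. Since the genes were chosen with these changes known, the counts are not read against those shares. The median log2 difference of the 10 genes was 0.20 in DU145 and 0.04 in 769-P, against 0.09 and -0.03 over all genes. In 769-P siRNA 1 gave a median of 0.31 for the 10 genes and siRNA 2 gave -0.12, a wider gap than in DU145, where the medians were 0.19 and 0.27. For a single gene the siRNAs of a line differed by a median of 0.271 in DU145 and 0.228 in 769-P on the log2 scale, and 1 gene in 10 differed by more than 0.759 and 0.628. This spread does not include the error of the control, which has no replicate.

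**Figure D2:**
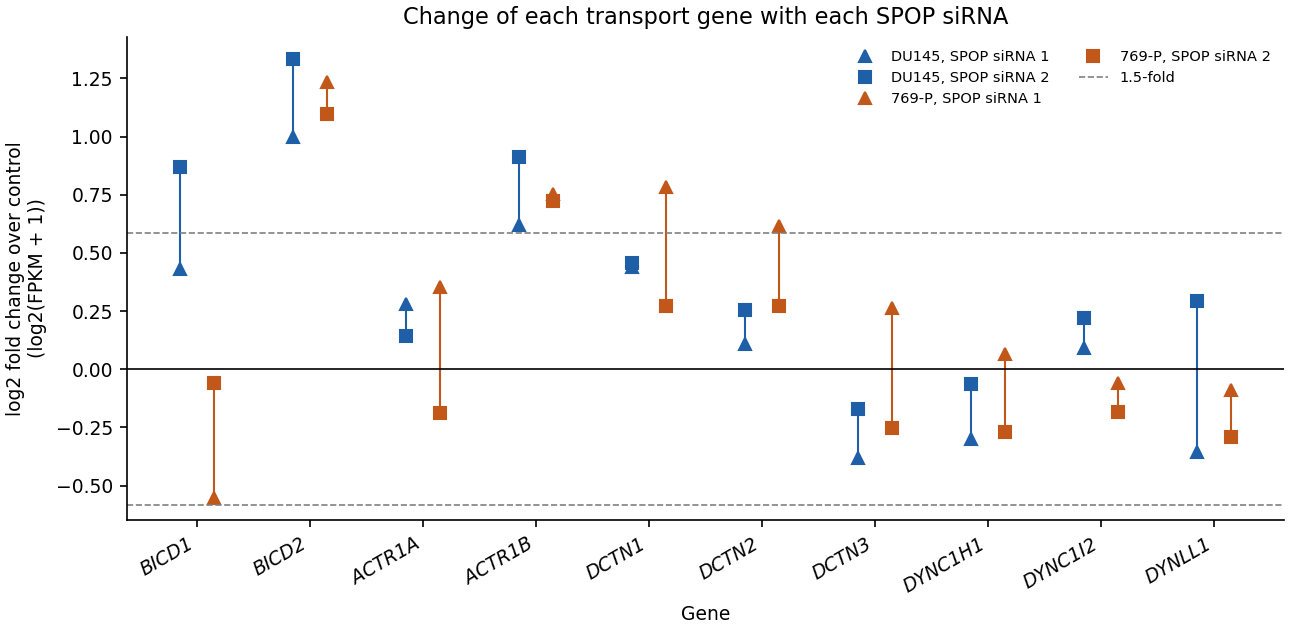
Difference in log2(FPKM + 1) between each SPOP siRNA library and the control of its line for the 10 genes. Triangles are siRNA 1 and squares siRNA 2, a line joins the siRNAs of a cell line, and dashed lines mark 1.5-fold. BICD2 and ACTR1B were above the upper dashed line in all 4 comparisons, and BICD1 lay on opposite sides of 0 in the 2 lines.

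Between the lines, the clearest differences in level were in the dynein subunits. DYNC1H1 had 61.6 ± 6.63 FPKM in DU145 and 22.2 ± 2.77 in 769-P (SD, n = 3 libraries of each line, controls and knockdowns together), and in the controls alone it was 2.88 times as high in DU145. DYNC1I2 went the other way, with 6.91 ± 0.605 FPKM in DU145 and 23.6 ± 1.57 in 769-P. DYNLL1 had 228 ± 50.8 and 254 ± 26.0 FPKM, and its libraries overlapped. BICD1, DCTN2 and DYNC1H1 were higher in all 3 DU145 libraries than in all 3 of 769-P, as were 35.1% of all genes. ACTR1A and DYNC1I2 were higher in all 3 libraries of 769-P, as were 21.2% of all genes, so 3 and 2 of the 10 genes are shares close to those of all genes. BICD2, ACTR1B, DCTN1, DCTN3 and DYNLL1 overlapped between the lines.

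Ordered by level in the DU145 libraries, DYNLL1 came first, then DCTN2, followed by DCTN1, whose range over the libraries overlapped those of DYNC1H1 and ACTR1A, and then DCTN3. ACTR1B and BICD2 came next and overlapped each other, and below them were DYNC1I2 and BICD1. In 769-P DYNLL1 was again first and BICD1 last. ACTR1A, DCTN1 and DCTN2 overlapped in turn below DYNLL1, DCTN3 overlapped DCTN2, and the ranges of ACTR1B, BICD2, DYNC1I2 and DYNC1H1 overlapped one another, those of ACTR1B and BICD2 also reaching that of DCTN3. FPKM is scaled to length, so these are levels per length of transcript.

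Other genes of dynein transport were taken from 8 lists made by function. Of 60 genes listed, 58 had a row and 49 averaged 1 FPKM or more. In DU145 CAPZB and KIF1C were higher by 1.5-fold with both siRNAs, and in 769-P KIF1C and KLC3. Of the 49, 0 were lower in either line on the log2(FPKM + 1) scale. Over all genes 4.72% were higher and 1.19% lower in DU145, and 3.6% and 3.73% in 769-P. The 2 of 49 in each line are thus near the shares of all genes. As plain FPKM ratios to the DU145 control, KLC4 (2.23 and 1.52) was also higher by 1.5-fold. As plain FPKM ratios to the 769-P control, RANBP2 (0.622 and 0.629), MAPRE1 (0.664 and 0.534) and HOOK3 (0.616 and 0.637) were lower by 1.5-fold. With a pseudocount of 0.1, which is nearer to plain ratios, 809 of all 11865 genes were higher in DU145 and 759 lower in 769-P. The median log2 difference of the 49 was 0.06 in DU145 and -0.05 in 769-P. With limma, 0 of the 49 passed an adjusted p of 0.05 in DU145, where 2 had an unadjusted p under 0.05, and 0 in 769-P, where 4 did. Over all 11865 genes 0.135% passed in DU145 and 0.101% in 769-P, and 744 and 827 had an unadjusted p under 0.05 from limma. The fit had 2 residual degrees of freedom.

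KIF1C is a kinesin of the opposite direction that carries vesicles to the plus end and binds BICD-related adaptors. It was the only one of the 49 higher by 1.5-fold in all 4 knockdown libraries, as were 0.868% of all genes. With centring on GC content KIF1C was not, at 0.57 with siRNA 2 in DU145. It had 26.6 FPKM in the DU145 control, 52.9 with siRNA 1 and 45.6 with siRNA 2, and 27.0, 75.5 and 53.4 FPKM in 769-P. The log2 difference was 0.86 (SE 0.28) in DU145, with an adjusted p of 0.786 from limma, and 1.20 (SE 0.28) in 769-P, with an adjusted p of 0.669. CAPZB, the beta subunit of the capping protein that also caps the ARP1 filament, had 56.3, 94.3 and 96.6 FPKM in DU145 and 64.6, 122 and 88.7 in 769-P. All its knockdown libraries lay above the controls, with log2 differences of 0.75 (SE 0.26) and 0.68 (SE 0.26). KLC3, a kinesin light chain, had 0.522, 1.59 and 1.84 FPKM in 769-P, where all 3 libraries were below 2 FPKM, and 4.99, 4.32 and 5.54 in DU145. The GC content of its transcript was at percentile 97.3. With centring on GC content KLC3 was at 0.52 and 0.67 in 769-P, no longer past 1.5-fold with siRNA 1.

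Among the other dynactin subunits (7 genes) 1 was higher by 1.5-fold with both siRNAs in DU145, CAPZB, and 0 in 769-P. Of the other dynein-1 subunits (6), the dynein regulators (3), the other adaptors (11), the BICD partners (3), the dynein-2 subunits (3) and the plus-end proteins (6), 0 were higher or lower by this measure in either line. By the mean over all 6 libraries, the most abundant gene of each list was DYNLRB1, a dynein light chain, with 69.0 FPKM, CAPZB with 87.1, the LIS1 stabilizer NUDC with 71.6, the kinetochore adaptor SPDL1 with 20.1, the BICD2 cargo RAB6A with 25.8, KIF1C with 46.8, the dynein-2 intermediate chain WDR34 with 94.4 and the plus-end protein MAPRE1 with 56.1. In DU145 alone NIN was above SPDL1 among the adaptors and KLC2 above KIF1C among the kinesins. RAB6A had 29.5, 27.2 and 29.0 FPKM in DU145 and 22.8, 27.2 and 19.0 in 769-P, with no shared direction. RANBP2, the nuclear pore partner of BICD2, was named after its values were seen because it lay at the threshold. Its log2 differences were -0.59 and -0.58 in 769-P (8.42, 5.24 and 5.30 FPKM), and it had 5.19, 4.07 and 4.41 FPKM in DU145. MAPRE1 also lay at the threshold in 769-P with siRNA 1, with log2 differences of -0.58 and -0.89. In DU145 the log2 differences of MAPRE1 were -0.69 and -0.42.

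**Figure D3:**
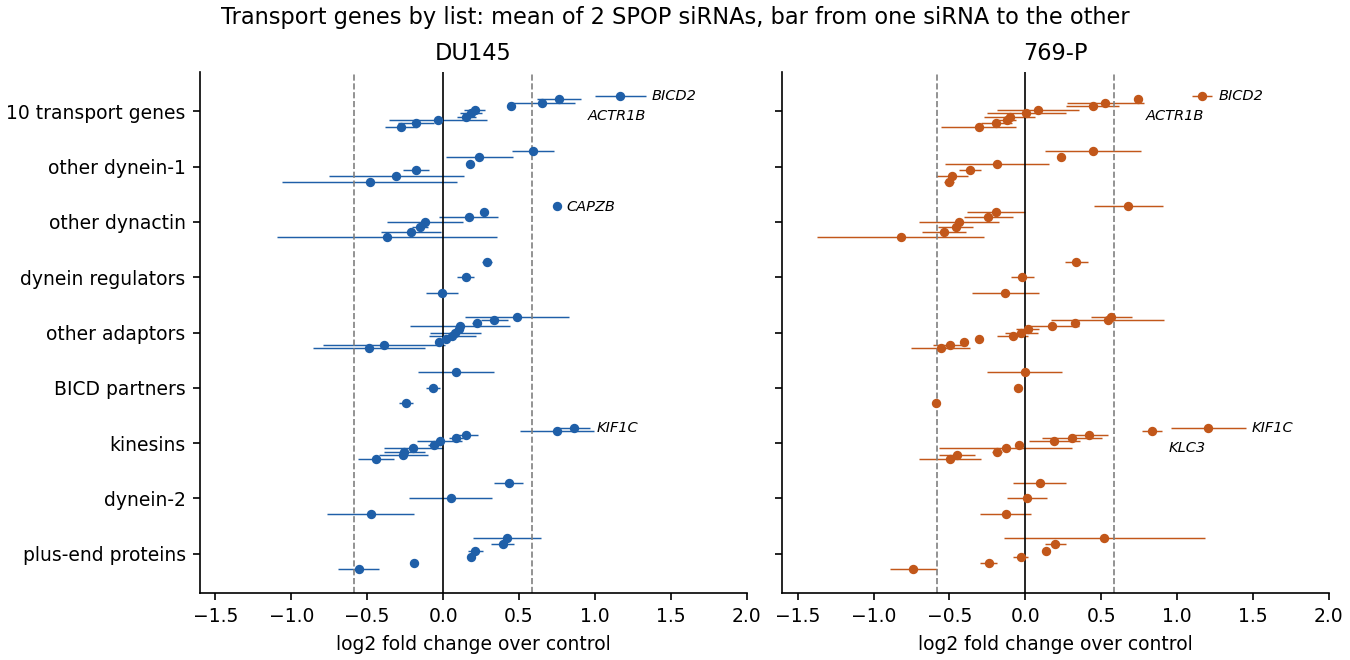
Mean difference in log2(FPKM + 1) after SPOP knockdown for the 10 genes and for the 49 other transport genes by list, in DU145 and 769-P. Points are means of 2 siRNAs, bars run from one siRNA to the other, and dashed lines mark 1.5-fold in each direction. Genes past it with both siRNAs are named.

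The lines themselves differed in many of these other genes. In the limma contrast of DU145 over 769-P, 19 of the 49 passed an adjusted p of 0.05, 12 of them higher in DU145 and 7 lower, and 42.1% of all genes passed. With quantile normalization 25 passed, 10 higher in DU145 and 15 lower, so the balance of directions depends on the scaling. CCDC64, an adaptor of the BICD family, was higher in DU145 by 2.98 on the log2 scale (SE 0.25, adjusted p = 0.000812 from limma). It had 8.55, 7.19 and 11.9 FPKM in DU145 against 0.293, 0.137 and 0.311 in 769-P. The centrosomal adaptor NIN was higher by 2.19 and RAB6B, a form of the BICD cargo RAB6, by 2.07. KLC3, RILP, MAPRE3, KLC1, HOOK2, KLC2, CLIP1, NDEL1 and KIF5B were also higher in DU145, by 0.61 to 1.55. The dynein-2 light intermediate chain DYNC2LI1 was lower in DU145 by a log2 difference of -2.23, SPDL1 by -1.87 and DYNLRB1 by -1.36. CAPZA2, CAPZA1, MAPRE1 and DCTN5 were lower too, by log2 differences of -1.12 to -0.81.

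The genes with 4 knockdown differences most like those of BICD2 were sought among 8085 genes averaging 5 FPKM or more, by the root mean square difference on the log2 scale. They were MARVELD1 (0.0868), CHST14 (0.0893), DEXI (0.138), GANAB (0.153) and TRIM52-AS1 (0.154). GANAB encodes a glucosidase of the endoplasmic reticulum and CHST14 a sulfotransferase of the Golgi. For ACTR1B they were CERCAM (0.0601), CTNNBIP1 (0.0701), SERPINH1 (0.0958), HILPDA (0.101) and AGBL5 (0.109). SERPINH1 encodes a collagen chaperone. A function shared by these like genes was not tested. ACTR1B was 87th in likeness to BICD2 and BICD2 779th in likeness to ACTR1B, both at 0.416. Each likeness rests on 4 differences that share 2 controls.

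The changes of all genes moved with the GC content of the transcript, and this was measured in 10446 genes (88.0% of those tested). The Spearman correlation across genes of the log2 difference with GC content was 0.200 with siRNA 1 and 0.140 with siRNA 2 in DU145, and 0.384 and 0.454 in 769-P. Of 5 equal bins of genes by GC content, the lowest had median differences of -0.26 and -0.32 in 769-P, and the highest 0.21 and 0.17. The transcript of BICD2 is 54.1% GC, at percentile 65.3 of these genes, and that of ACTR1B 59.0%, at percentile 80.3. BICD1, at 40.4%, and DYNC1I2, at 37.5%, were at percentiles 17.7 and 6.51. The genes most like BICD2 and ACTR1B ran from percentile 56.1 (HILPDA) to 91.5 (DEXI), all above the median GC content. After centring on genes of like GC content, BICD2 differed from the control by 0.85 and 1.14 in DU145 and by 1.13 and 1.07 in 769-P, still past 1.5-fold each time. ACTR1B was at 0.41 and 0.73 in DU145 and at 0.57 and 0.60 in 769-P, and was no longer past 1.5-fold with both siRNAs in either line. DYNC1I2 in 769-P turned from a mean of -0.12 to 0.19. The part of GC content in these changes was not tested further.

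**Figure D4:**
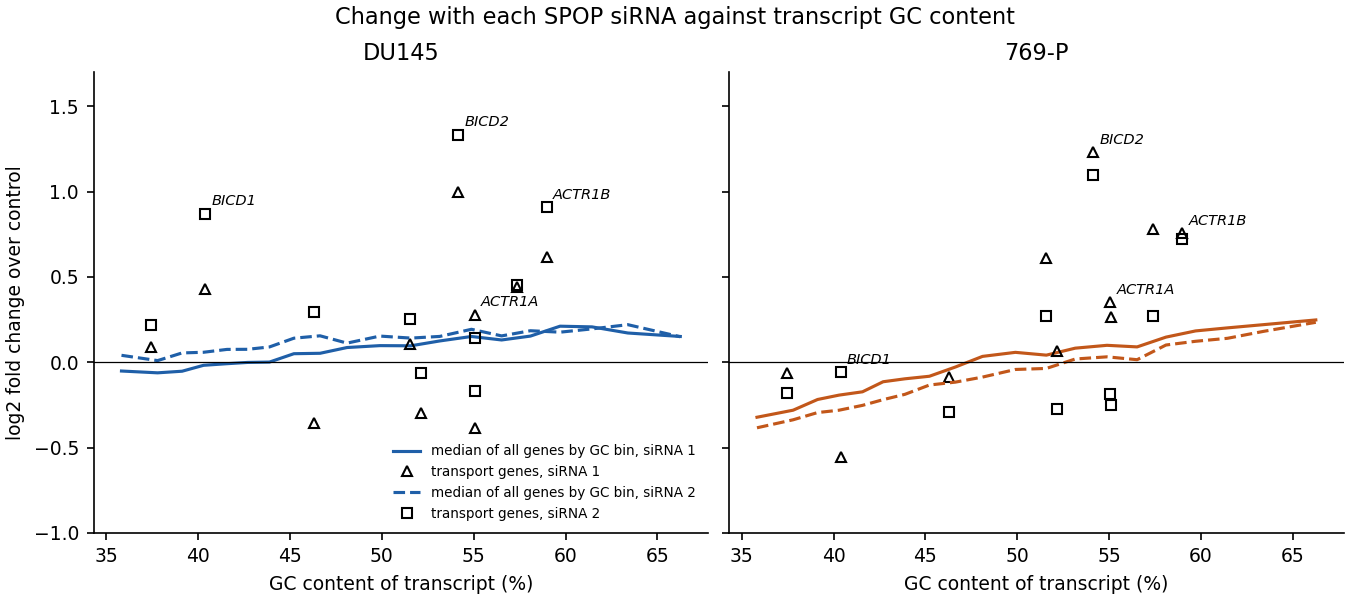
Difference in log2(FPKM + 1) after SPOP knockdown against the GC content of the transcript in percent, for DU145 and 769-P. Lines are the medians of all genes in 20 bins of GC content, solid for siRNA 1 and dashed for siRNA 2, and triangles and squares are the 10 genes with siRNA 1 and siRNA 2. The medians went up with GC content, more so in 769-P, and BICD2 and ACTR1B lay above them in both lines.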

How the data were processed

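The 6 libraries were made from poly(A) RNA and sequenced as paired ends of 100 bp. TopHat2 placed the reads on hg19 with up to 2 mismatches, and the FPKM values that the authors deposited came from Cufflinks, 1 per row and library. The submitters' processing notes also name FastQC and cutadapt. Tool versions and the annotation are not given in the sources used here. FPKM values hold no read counts, so the depth of each library and the counting error of a value are unknown. The study's methods mention 2 biological replicates, but the labels list 1 library per condition, so the 2 siRNAs of a line were taken as its replicates and p-values measure only the spread between these libraries.

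From the 26006 rows, values of repeated symbols were summed, giving 24551 genes. A pseudocount of 1 was added before log2, and genes averaging 1 FPKM or more were tested. limma 3.58.1 in R 4.3.3 was fitted to 4 groups with eBayes and a trend, with Benjamini-Hochberg adjustment over all genes tested. The fit was also run on simulated data with the same noise for every gene. That setting is simpler than these libraries, so nothing is concluded from it here. Python 3.11.15 with pandas 2.3.3 was used for tables and biopython 1.88 for protein alignment. Positions, transcripts and GC content came from the GENCODE annotation of GRCh37, and promoter windows from RefSeq, where all 10 genes had one.

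The 10 genes and all lists were chosen with earlier results of these data known. Named were the 10 genes, SPOP, other transport genes past 1.5-fold with both siRNAs or past an adjusted p of 0.05, the most abundant gene of each list, and the 5 genes most like BICD2 and ACTR1B. RANBP2, HOOK3 and KLC4 were added after their values were seen. The epithelial markers (EPCAM, CDH1, KRT8 and KRT18) summed to 859 to 1122 FPKM in DU145 and 462 to 570 in 769-P. In 769-P nearly all of this sum was KRT8 and KRT18, with EPCAM at 2.95 to 4.92 FPKM and CDH1 at most 0.0977. Some marker results are not reported here. Alternatives were another pseudocount, filter and threshold, median centring, background subtraction, quantile normalization, a replicate block, no trend and each siRNA left out. Centring on GC content or length was added after the data were seen.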

Additional observations from a re-analysis of the deposited data

Results flagged for a closer look

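For BICD1 both siRNAs lay above the control in DU145 (log2 differences of 0.43 and 0.87) and below it in 769-P (-0.55 and -0.06), and the mean difference was 0.96 higher in DU145. DYNC1I2 showed the same arrangement (0.09 and 0.22 in DU145, -0.06 and -0.18 in 769-P), with a mean 0.28 higher in DU145. These differences between the lines were not tested. BICD1 had at most 3.92 FPKM in any library. With median centring the siRNA 2 value of BICD1 in 769-P was 0.00074. With centring on GC content, it was 0.22 and the mean of DYNC1I2 there 0.19, so that neither gene kept this arrangement.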

How the results depend on the processing

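The 20 changes of the 10 genes were recomputed under 5 other settings, and of these 100 values 85 stayed within the SD of the siRNAs, 15 moved by more and 2 changed sign, DCTN3 and DYNC1I2 in 769-P with GC centring. A mean of 2 siRNAs cannot move beyond their SD when 1 is left out, so those values are not counted. The count of 2 genes past 1.5-fold in DU145 became 1 with median centring, GC centring or length centring, where ACTR1B was lost, 3 with a pseudocount of 0.1 or with the olfactory receptor background subtracted, where BICD1 was gained, 0 at 2-fold, where BICD2 with siRNA 1 was at 0.999, and 2 to 3 with 1 siRNA left out, siRNA 2 alone adding BICD1. The count of 2 in 769-P became 1 with GC centring, 1 at 2-fold, where BICD2 was left, and 2 to 4 with 1 siRNA left out, siRNA 1 alone adding DCTN1 and DCTN2. The calls over all genes shifted as well. Of 11865 genes, 560 were higher in DU145, against 809 with a pseudocount of 0.1, 841 with background subtraction and 341 with median centring. In 769-P 427 were higher, against 730, 390 and 494 in that order. Of 10446 genes, 251 were higher in DU145 and 321 in 769-P with GC centring, and 283 and 414 with length centring. For the other transport genes the count of 2 in DU145 became 3 with a pseudocount of 0.1 or with the olfactory receptor background subtracted, where KLC4 was gained. It became 1 with GC centring, 0 at 2-fold and 7 to 8 with 1 siRNA left out. The count of 2 in 769-P became 5 with a pseudocount of 0.1, where RANBP2, MAPRE1 and HOOK3 were gained as lower. Over all 11865 genes that setting took the lower genes in 769-P from 442 to 759. It became 3 with the background subtracted, 1 with GC centring, 0 at 2-fold and 6 to 12 with 1 siRNA left out. A single siRNA passes more easily than 2, by construction. In limma, 0 of the other transport genes passed for either knockdown under the alternatives run. The 19 that differed between the lines became 12 to 14 with 1 siRNA library left out, the 12 without siRNA 2 of 769-P, and a lone siRNA library was then assumed to vary like the other groups. With a replicate block on the siRNA number the counts were 0, 0 and 22. Only 2 numbers are shared, and the deviations of like-numbered libraries correlated at 0.270 across 11865 genes. Over all genes limma called 16 in DU145 and 12 in 769-P, 678 and 6 without the filter on low values, 4 and 10 with a mean of at least 5 FPKM, and 0 to 30 and 0 to 7 with 1 library left out, both at 0 without either 769-P siRNA library and DU145 at 30 without its siRNA 1. Between the lines it called 4994, and 2763 to 3892 with 1 library left out. The cause of these differences was not tested.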
